A study of Mus musculus with 4 samples.

Results

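The snoRNA host gene transcripts examined here are the RNAs of 8 genes, Gas5, Snhg1, Snhg3, Snhg5, Snhg6, Snhg8, Snhg11 and Snhg12. They were picked by gene symbol from the 52550 genes of the count table, and all 8 were among the 13632 genes that passed the filter on low counts. The libraries came from retinas of wild-type C57BL/6 mice at postnatal day 0 (P0), dissociated with papain. RNA immunoprecipitation (RIP) with an antibody against YTHDF2 was followed by sequencing, and each of 2 biological replicates gave both an input library, made before the pulldown, and a RIP library, made from the eluted RNA, so that 2 input and 2 RIP libraries were compared. All 4 libraries share strain, genotype, age and tissue. A pulldown with control IgG was not analysed here, so RIP is compared with input only.

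snoRNA host genes carry small nucleolar RNAs (snoRNAs) in their introns. Splicing frees the snoRNA, which stays in the nucleolus and guides the chemical modification or the cleavage of ribosomal RNA, while the joined exons are exported to the cytoplasm, are bound by ribosomes despite having no long reading frame, and are in many cases removed by nonsense-mediated decay. YTHDF2 is a cytoplasmic reader of N6-methyladenosine (m6A) that recruits the deadenylase machinery to its transcripts. The spliced host transcripts are thus found in the compartment in which YTHDF2 works.

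In short, every one of the 8 host transcripts took a smaller share of the RIP libraries than of the inputs, by 2.35-fold (Snhg12) to 8.62-fold (Snhg3). By the limits of the study, a log2 fold change of at least 1 in size and an unadjusted p below 0.05, 8 of 8 were depleted and 0 were enriched. Over all tested genes 17.2% were depleted and 9.43% enriched. By edgeR's quasi-likelihood test with Benjamini-Hochberg adjustment over all tested genes, 7 of 8 were lower at an adjusted p below 0.05, against 9.78% of all tested genes, and Snhg12 was the exception. At that threshold 0 were higher, against 3.48% of all tested genes. Without RIP replicate 1 or RIP replicate 2, with a single RIP library left, 0 of 8 passed the adjusted threshold and 5 or 6 of 8 the limits of the study. Depletion was also frequent among short transcripts as a class, though not general. Of the 1948 tested genes as long as the 7 short hosts (528 to 1538 nt), 46.8% were depleted and 1.49% enriched. Of the 776 genes of 500 to 1000 nt, where Gas5, Snhg1, Snhg3, Snhg6 and Snhg8 belong, 64.4% were depleted. Of the 2387 genes of 1000 to 2000 nt, where Snhg5 and Snhg12 belong, 30.7% were. Once a trend of fold change on spliced transcript length and GC content was taken out, only Snhg11, the long member, was still called. With retained introns counted in the length, a choice made after the data were seen, Gas5 and Snhg1 were called as well. That made 3 of 8 depleted, against 14.9% of all tested genes.

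The input libraries summed to 39499994 and 36236531 counts and the RIP libraries to 19530226 and 24903212. Levels are given as CPM, counts scaled to a common library size with TMM factors, and a log2 fold change is a change in share of the library relative to that scale. Of the retinal markers, 5 of 5 for progenitors, 5 of 5 for ganglion cells, 3 of 3 for amacrine cells and 3 of 4 for photoreceptor precursors had at least 10 counts in both inputs. The 3 pigment epithelium markers were at 0 in both inputs, and the 3 lens markers summed to at most 0.0874 CPM there. In input replicates 1 and 2, vessel markers summed to 3.24 and 1.87 CPM and microglia markers to 1.47 and 0.641 CPM. Astrocyte markers summed to 1.05 and 1.28 CPM and blood markers to 0.570 and 0.408 CPM. Single genes differed strongly between the inputs. Malat1, a nuclear lncRNA, had 11997 counts in input replicate 1 and 96877 in input replicate 2, and its scaled level was 7.85-fold higher in the latter. The mRNAs Upf2 and Ncl were likewise 7.29-fold and 5.43-fold higher there. Of the other nuclear lncRNAs tested, Kcnq1ot1 was 2.61-fold, Meg3 2.09-fold, Xist 1.48-fold, Miat 1.47-fold and Neat1 1.18-fold higher in input replicate 2. Rian and Mirg were at 0.94 and 0.80 times their level in input replicate 1. In RNA of a whole tissue, the number of cells that hold a transcript and its level per cell cannot be told apart.

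Together the 8 transcripts made up 110 and 153 CPM of the inputs and 33.3 and 37.4 CPM of the RIP libraries. Gas5 supplied between 38.8% and 52.7% of their counts in each library. Both RIP libraries lay below both inputs for 8 of 8 members, which was so for 31.3% of all tested genes.

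Gas5 (growth arrest-specific 5; GRCm38 chr1:161034422-161038539, plus strand) accumulates when cells stop growing and holds a row of box C/D snoRNAs, the class that guides ribose methylation. Its level was 42.7 and 77.0 CPM in input replicates 1 and 2 and 17.5 and 16.5 CPM in RIP replicates 1 and 2. The RIP libraries were close together and both low, whereas the inputs were high and differed 1.80-fold between themselves. The log2 fold change was -1.81 ± 0.39 (SE; edgeR, adjusted p = 0.021). Without input replicate 2, the library rich in Malat1, it was -1.33, and without input replicate 1 it was -2.18.

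Snhg1 (chr19:8723475-8726443, plus strand) is the host of Snord22 and of further box C/D snoRNAs. It had 9.75 and 11.7 CPM in the inputs and 2.74 and 3.28 CPM in the RIP libraries. The groups did not overlap and the replicates of each lay near each other. The log2 fold change was -1.83 ± 0.37 (adjusted p = 0.016 by edgeR), with -1.83 within each replicate pair. The pairs were also close for Snhg11, at -1.96 and -1.97, and for Snhg12, at -1.26 and -1.21. They lay farther apart for Gas5 (-1.29 and -2.22), Snhg3 (-3.91 and -2.53) and Snhg6 (-3.11 and -2.15). The same held for Snhg8 (-2.63 and -1.96) and Snhg5 (-1.15 and -1.58).

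Snhg5 (chr9:88521050-88522929, minus strand) hosts the box C/D snoRNAs Snord50a and Snord50b. Its inputs held 8.82 and 13.7 CPM and its RIP libraries 3.96 and 4.57 CPM. Both RIP libraries were below both inputs, with input replicate 2 the highest, as for Gas5. The fall was one of the smaller ones, -1.40 ± 0.38 on the log2 scale (edgeR, adjusted p = 0.045). Without RIP replicate 1 it was -1.22 (adjusted p = 0.44 by edgeR) and without RIP replicate 2 it was -1.43 (adjusted p = 0.36), and neither value was called.

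Snhg6 (chr1:9941959-9944118, minus strand), host of the box C/D snoRNA Snord87, was the least abundant member by CPM. Its 103 and 108 input counts and 9 and 17 RIP counts correspond to 3.09 and 3.15 CPM against 0.357 and 0.707 CPM. The inputs were nearly equal and the RIP libraries, both low, differed from each other by the few reads they hold. Its log2 fold change was -2.55 ± 0.52 (edgeR, adjusted p = 0.017), and a filter of at least 10 counts in every library removes it.

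Snhg3 (chr4:132348014-132353686, minus strand) hosts Snora73a and Snora73b, the snoRNAs also called U17, which act in the cleavage of the ribosomal RNA precursor rather than as modification guides. Its counts were 317 and 280 (inputs) and 16 and 34 (RIP), or 9.51 and 8.16 CPM against 0.634 and 1.41 CPM. It was low in both RIP libraries and lowest in RIP replicate 1. This was the largest fall of the 8, -3.11 ± 0.49 on the log2 scale (edgeR, adjusted p = 0.0055). The difference between Snhg3 and the other members was not tested. Snhg3 shares 135 nt of exon with Rcc1 on the same strand, whose log2 fold change was -0.14 ± 0.33 (adjusted p = 0.83), and 705 nt with Gm17300 on the opposite strand, which fell from 51 and 37 to 5 and 0 counts. The strand setting of the counting is not given in the sources used here.

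Snhg8 (chr3:123507552-123508404, minus strand) hosts the H/ACA snoRNA Snora24, of the class that guides pseudouridylation. It had 21.1 and 17.9 CPM in the inputs and 3.41 and 4.61 CPM in the RIP libraries. The groups stood well apart, and replicates within a group were close. The log2 fold change was -2.28 ± 0.36 (edgeR, adjusted p = 0.0059).

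Snhg11 (chr2:158375638-158386145, plus strand) is known mainly from neurons. GENCODE M21 gives it the type protein coding, and its longest spliced transcript has 5864 nt, against 528 to 1538 nt in the other 7. Its level was 10.05 and 17.05 CPM in the inputs and 2.58 and 4.37 CPM in the RIP libraries. The higher value of each group came from replicate 2, and the groups did not overlap. It fell by 1.96 ± 0.44 on the log2 scale (edgeR, adjusted p = 0.023). Without RIP replicate 1 the value was -1.56 (edgeR, adjusted p = 0.34) and it was no longer called.

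Snhg12 (chr4:132308623-132311024, plus strand) holds both classes, the H/ACA snoRNAs Snora16a, Snora44 and Snora61 and the box C/D snoRNA Snord99. Its inputs had 4.95 and 4.31 CPM and its RIP libraries 2.06 and 1.87 CPM. The values within a group were close, and both RIP libraries lay below both inputs. Its log2 fold change of -1.23 ± 0.39 had an unadjusted p of 0.012 and an adjusted p of 0.071 in edgeR's quasi-likelihood test, so that it passed the limits of the study but not the adjusted threshold. It passed neither without RIP replicate 1 (-1.21) or RIP replicate 2 (-1.07), nor with scaling by library size alone (-0.89).

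**Figure D1:**
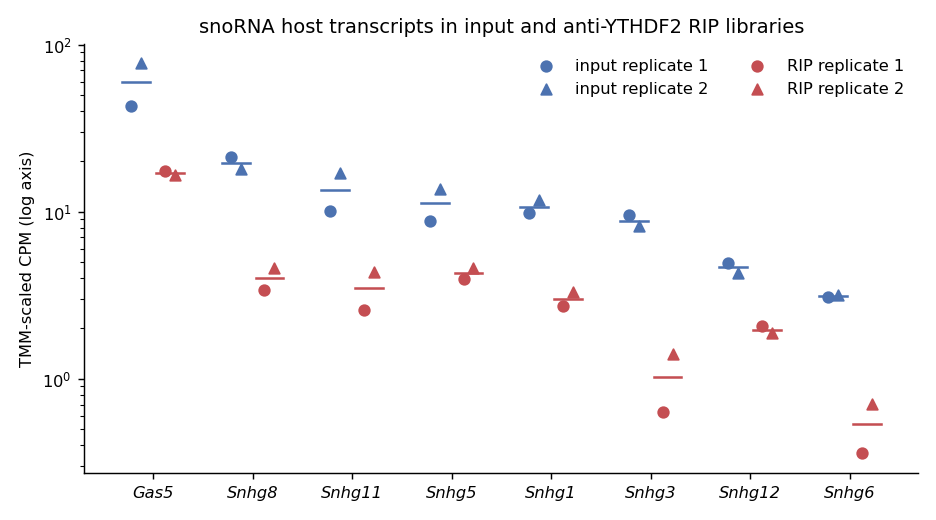
Level of each snoRNA host transcript in TMM-scaled CPM (log axis) in the 2 input libraries (blue) and the 2 RIP libraries (red), with circles for replicate 1, triangles for replicate 2 and bars at the group means. For each of the 8 genes both red points lie below both blue points, and the group means lie farthest apart for Snhg3 (8.62-fold by the fit) and closest for Snhg12 (2.35-fold).

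Levels were compared between members per length. By the deposited FPKM, the input order was Snhg8 (19.5 ± 0.58, mean ± SD, n = 2), Gas5 (13.98 ± 6.81), Snhg3 (7.64 ± 0.14), Snhg5 (5.63 ± 2.20), Snhg1 (3.06 ± 0.66), Snhg12 (2.38 ± 0.029), Snhg6 (2.27 ± 0.24) and Snhg11 (1.38 ± 0.62). The ranges of Snhg12 and Snhg6 overlapped, and those of Gas5 and Snhg8 nearly met, at 18.8 and 19.1. In the RIP libraries Snhg8 (4.76 ± 0.032) and Gas5 (4.64 ± 1.18) overlapped at the top, followed by Snhg5 (2.48 ± 0.25). Snhg12 (1.16 ± 0.33), Snhg1 (0.958 ± 0.031) and Snhg3 (0.892 ± 0.41) could not be set apart by their ranges, nor could Snhg11 (0.401 ± 0.070) and Snhg6 (0.383 ± 0.13). By its mean Snhg3 was the third of the 8 in the inputs and the sixth in the RIP libraries.

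The order rests on the length used. The FPKM values of Gas5 imply a length of 3773 nt, near the 3760 nt covered by all its annotated exons, of which many belong to isoforms with a retained intron (20 of 25 transcripts), whereas its longest transcript without one has 665 nt. Per kb of spliced transcript, Gas5 came first in the inputs (90.0 ± 36.4 CPM per kb), above Snhg8 (37.0 ± 4.28 CPM per kb). Snhg3 (15.2 ± 1.64), Snhg1 (15.1 ± 1.93) and Snhg5 (11.2 ± 3.42 CPM per kb) then had overlapping ranges or ranges that nearly met. Snhg6 (3.82 ± 0.050), Snhg12 (3.01 ± 0.29) and Snhg11 (2.31 ± 0.84 CPM per kb) were the lowest, the last 2 with overlapping ranges. In the RIP libraries Gas5 (25.6 ± 1.03) and Snhg8 (7.60 ± 1.62 CPM per kb) kept the first places.

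Snhg8, the member with the highest input FPKM, was used to look for the closest profiles. Among the 6858 genes that no library counted fewer than 50 times, the 3 whose log2 CPM, centred on its mean over the 4 libraries, lay nearest were Rps20 (root mean square distance 0.033), Hist1h4k (0.050) and Atp5g2 (0.050 on the log2 scale). Rps20 encodes a ribosomal protein, Hist1h4k a histone, and Atp5g2 a subunit of the mitochondrial ATP synthase. Their log2 fold changes were -2.23, -2.27 and -2.24. With 4 libraries that fall into a high and a low pair, nearness says little beyond a like fold change.

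Transcript length was related to fold change over the whole table, and the short hosts lay where short transcripts lie. The median log2 fold change over all tested genes was -0.05. By the longest spliced transcript it was -1.89 for 776 genes of 500 to 1000 nt, -0.70 for 2387 genes of 1000 to 2000 nt, and 0.58 for 808 genes of 8000 nt or more. The median of the 8 members was -1.90. The 1948 genes between 528 and 1538 nt had a median of -1.22. Gas5, Snhg1, Snhg6 and Snhg8 lay between the quartiles of the genes of 500 to 1000 nt, which were -2.72 and -0.94, and Snhg3 lay below the first. Snhg5 and Snhg12 lay between the quartiles of the genes of 1000 to 2000 nt, which were -1.44 and -0.08. Noncoding genes (lincRNA, processed transcript and antisense types, 621 tested) had a median of -0.64, with 23% of them depleted and 3.86% enriched. Snhg11 stood outside the pattern for its length. Of the 2017 genes of its length or more, 3.42% were depleted, and their median was 0.54.

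**Figure D2:**
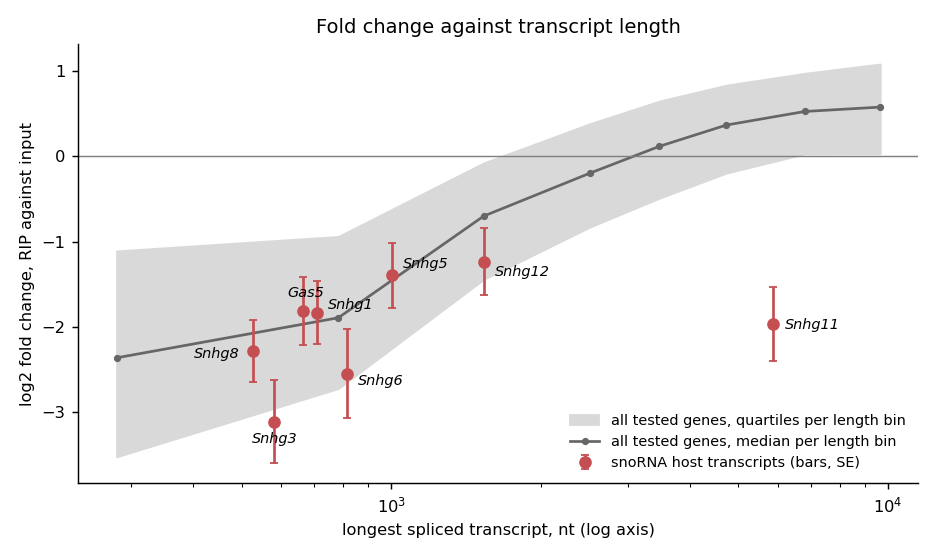
Log2 fold change, RIP against input, against the length of the longest spliced transcript (log axis). The grey line and band give the median and quartiles of all tested genes in 8 length bins, and red points the 8 snoRNA host transcripts with their SE. Of the 7 short hosts 6 lie inside the grey band and Snhg3 at its lower edge, and Snhg11, at 5864 nt and -1.96, lies far below the band.

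With the trend on spliced length and GC content taken out, the members' values shrank or turned, except that of Snhg11. The log2 fold change was -0.18 for Gas5, 0.11 for Snhg1, -0.10 for Snhg5 and -0.16 for Snhg8, with adjusted p-values of 0.81, 0.82, 0.82 and 0.68 by edgeR. Snhg3 (-0.99, adjusted p = 0.17), Snhg6 (-0.83, adjusted p = 0.29) and Snhg12 (-0.60, adjusted p = 0.19, all by edgeR) stayed lower but did not pass. Snhg11 reached -2.49 (edgeR, adjusted p = 0.0051). The count of depleted members was therefore 1 of 8 in that fit, in which 14.6% of all tested genes were depleted. Whether the length of the transcripts or something that goes with it moves the fold changes was not tested.

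Gas5 and Snhg1 also depended on which isoform sets the length. Their longest annotated transcripts, with retained introns, have 2556 and 2728 nt, and with these lengths in the trend, a choice made after the data were seen, Gas5 was at -1.41 (edgeR, adjusted p = 0.010) and Snhg1 at -1.46 (adjusted p = 0.020). Then 3 of 8 were depleted, against 14.9% of all tested genes in that fit. The counts do not say which isoform the reads came from.

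**Figure D3:**
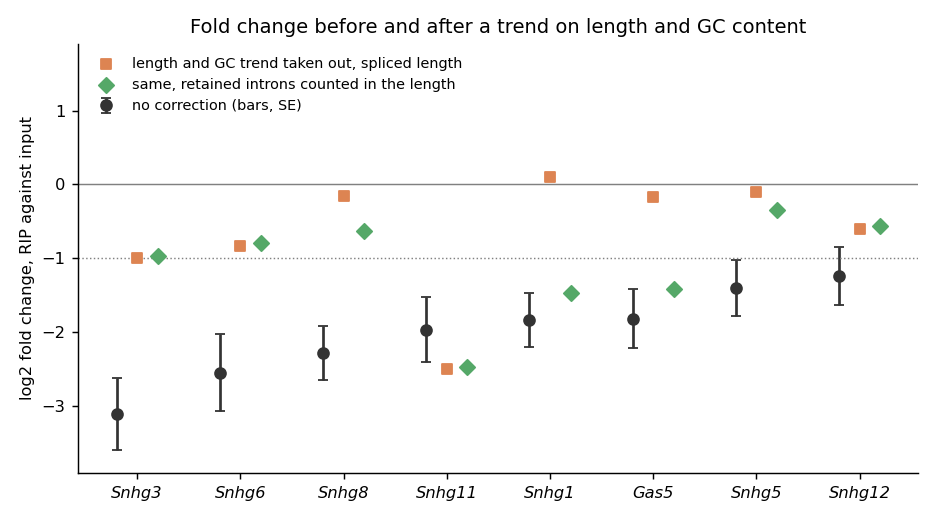
Log2 fold change of each member with no correction (black, bars give the SE), after a trend on spliced length and GC content was taken out (orange), and after the same with retained introns counted in the length (green). The dotted line marks a log2 fold change of -1. The orange points of 7 genes lie between -0.99 and 0.11, the green points of Gas5 and Snhg1 stay below -1, and Snhg11 lies at -2.47 or lower in both.

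The letters GGACT, the commonest context of m6A in mammalian RNA, were searched on the sense strand of each member's longest spliced transcript in GENCODE M21. Of the 8, 5 hold none (Snhg1, Snhg3, Snhg5, Snhg8 and Snhg12). Gas5 and Snhg6 hold 1 each, and Snhg11 holds 11, or 1.88 per kb. Over the 7 short hosts that is 2 in 5841 nt (0.342 per kb), beside a median of 1.02 per kb over tested genes. At least 1 is present in 89.4% of all tested genes and in 70.1% of those in the length range of the short hosts. The 2 occurrences in short hosts are shown with their surroundings, with GGACT in capitals, as positions of the spliced transcript.
Gas5, transcript of 665 nt, positions 339 to 368: gaaggcttacgaGGACTcgtcaggaagctg
Snhg6, transcript of 816 nt, positions 580 to 609: aacaagctgccaGGACTacatttgccaata
Both genes that hold the motif in a short transcript were depleted, as were the 5 without it and Snhg11, which is rich in it. A match of letters is no evidence that the site is methylated, and m6A was not measured in these libraries.

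Host gene transcripts are known as a group for starting with a tract of C and T, the terminal oligopyrimidine (TOP) that they share with ribosomal protein mRNAs. Because the members moved together, the 50 nt around their annotated starts (20 before, 30 from the start on) are shown from RefSeq, assembly GRCm38.p6, with the longest unbroken run of C and T on the sense strand in capitals. Of the 7 short hosts, 6 had an entry, with 2 starts for Gas5.
Gas5, upstream start, chr1:161034581-161034630, plus strand: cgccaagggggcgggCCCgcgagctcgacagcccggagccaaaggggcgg
Gas5, downstream start, chr1:161035146-161035195, plus strand: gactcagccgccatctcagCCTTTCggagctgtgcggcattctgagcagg
Snhg1, chr19:8723467-8723516, plus strand: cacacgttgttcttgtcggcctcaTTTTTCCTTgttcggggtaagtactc
Snhg3, chr4:132353657-132353706, minus strand: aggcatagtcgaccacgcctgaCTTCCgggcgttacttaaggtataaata
Snhg5, chr9:88522868-88522917, minus strand: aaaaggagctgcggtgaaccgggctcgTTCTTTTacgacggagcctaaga
Snhg8, chr3:123508307-123508356, minus strand: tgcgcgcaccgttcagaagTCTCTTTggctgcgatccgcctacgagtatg
Snhg12, chr4:132308658-132308707, plus strand: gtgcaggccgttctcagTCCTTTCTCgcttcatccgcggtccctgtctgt
The run covers the annotated start in Snhg8 (7 nt), Snhg12 (9 nt) and the downstream start of Gas5 (6 nt). In Snhg3 it begins at the third transcribed base (5 nt), in Snhg1 at the fifth (9 nt) and in Snhg5 at the eighth (7 nt). Runs of 5 to 7 nt are frequent in such windows, and runs of 9 nt less so. Of the 32851 windows in the RefSeq table, 64.2% hold a run of at least 5 nt and 43.0% one of at least 6 nt. The share is 28.6% for at least 7 nt and 12.6% for at least 9 nt. These shares count a run anywhere in the window. How often a run covers the annotated start was not counted. The log2 fold change was -1.23 for Snhg12 and -1.83 for Snhg1, each with a run of 9 nt. It was -2.28 for Snhg8 and -1.40 for Snhg5 (7 nt each), -1.81 for Gas5 and -3.11 for Snhg3 (5 nt). A relation between the run and the fold change was not tested.

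The snoRNAs inside the host genes were looked at next, since the annotation places 31 small RNA genes of 60 to 205 nt within the 8 genes on the same strand. Of these, 15 had at least 10 counts over the 4 libraries and 7 passed the filter on low counts. Another 8 stood at exactly 1 in all 4 libraries. Among all genes of the series 160 did so, 110 of them miRNA genes, while 0 genes stood at exactly 2 in all 4, so that these values of 1 may not be reads and were left aside. A further 2 were at 0 throughout, and 6 had under 10 counts in total.

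The most counted small RNA gene of each of 4 hosts is shown, with the sequence of GENCODE M21 (GRCm38), to let its class be read. In box C/D snoRNAs the capitals mark TGATGA within the first 20 nt (box C) and CTGA within the last 20 nt (box D), and in H/ACA snoRNAs they mark ACA within the last 12 nt.
Gm22357, in Gas5, chr1:161036057-161036139, plus strand: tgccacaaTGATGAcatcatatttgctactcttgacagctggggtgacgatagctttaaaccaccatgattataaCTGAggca
Snord22, in Snhg1, chr19:8725866-8725991, plus strand: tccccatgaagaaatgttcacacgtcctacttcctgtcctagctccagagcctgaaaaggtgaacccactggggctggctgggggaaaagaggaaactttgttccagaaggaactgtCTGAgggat
Snora73b, in Snhg3, chr4:132352322-132352526, minus strand: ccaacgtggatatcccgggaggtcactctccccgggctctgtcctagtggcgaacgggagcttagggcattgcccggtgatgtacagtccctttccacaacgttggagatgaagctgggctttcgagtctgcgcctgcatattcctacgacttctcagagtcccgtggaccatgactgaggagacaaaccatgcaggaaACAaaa
Snora24, in Snhg8, chr3:123507937-123508066, minus strand: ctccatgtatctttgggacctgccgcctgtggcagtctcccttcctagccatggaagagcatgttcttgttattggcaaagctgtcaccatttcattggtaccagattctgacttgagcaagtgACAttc
Snord22 has no TGATGA in its first 20 nt and is marked at CTGA only. Searched on the sense strand, 18 of the 31 hold both box C and box D as spelled here, against 20.6% of the 1507 snoRNA transcripts in the annotation, and 9 hold ACA near the end and no TGATGA near the start, against 46.5%.

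Snord22, which takes part in the maturation of the small ribosomal subunit RNA, had 460 and 823 input counts and 113 and 167 RIP counts. Both RIP libraries were lower, and the log2 fold change of -1.73 ± 0.42 (edgeR, adjusted p = 0.030) was near the -1.83 of its host Snhg1. Snora73b had 177 and 231 input counts and 5 and 28 RIP counts, a fall of -3.14 ± 0.68 (adjusted p = 0.020) beside -3.11 for Snhg3. Gm22357 had 143 and 115 input counts and 11 and 25 RIP counts, -2.37 ± 0.53 (adjusted p = 0.022), beside -1.81 for Gas5.

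The groups of these 3 did not overlap, with both RIP libraries the lower. That was so for all 7 tested small RNAs and for 31.3% of all tested genes. Of the other 4 tested, Snord80 in Gas5 (32 and 29 counts against 3 and 6) and Gm24452 in Snhg1 (38 and 53 against 13 and 11) were depleted by the limits of the study only. Gm25894 in Snhg1 (60 and 27 against 6 and 14) and Snora24 in Snhg8 (27 and 19 against 10 and 2) did not pass them, at -1.65 ± 0.74 and -1.48 ± 0.91. In total 5 of 7 were depleted, 3 at an adjusted p below 0.05, where all tested genes gave 17.2% and 9.78%. The median was -1.73. The filter on low counts can be passed through the inputs alone, as by Snord80 with its 3 and 6 RIP counts. It removed Gm24453 and Gm22744, which were thinly counted and higher in RIP. The 5 of 7 is therefore no share of the hosted small RNAs as a whole. Of the 31, 27 lie wholly under annotated exons of some host isoform, in which the intron is kept, so that a read of the snoRNA and one of that isoform cannot be told apart. Snora73b is one of the 4 that do not. The differences between small RNA and host, from -0.56 to 0.80 on the log2 scale, were within the sum of the standard errors of both in each of the 7.

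The 8 with at least 10 counts that the filter removed were Gm22489 (10 and 22 counts against 1 and 3) and Mir5117 (10 and 5 against 4 and 2) in Gas5, Snord87 in Snhg6 (15 and 7 against 3 and 3), Snora61 in Snhg12 (16 and 5 against 2 and 5), Snora73a in Snhg3 (6 and 7 against 4 and 4), Snord50a in Snhg5 (5 and 5 against 1 and 0), and Gm24453 (1 and 1 against 2 and 6) and Gm22744 (1 and 1 against 1 and 14) in Snhg1. They are too thinly counted for a comparison. Mir5117 is listed with the type snoRNA in the annotation.

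**Figure D4:**
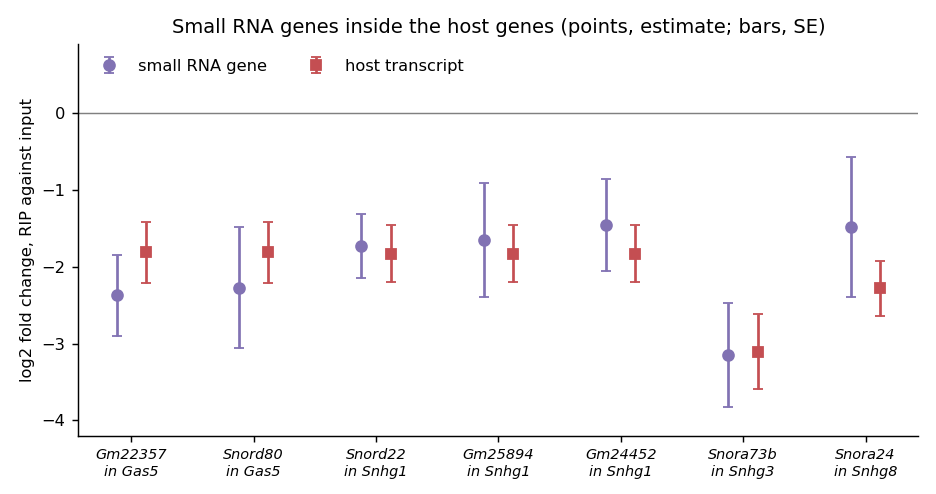
Log2 fold change, RIP against input, of the 7 tested small RNA genes (purple circles) and of the host transcript around each (red squares), with bars for the SE. Each pair overlaps within its bars, and Snora73b and Snhg3, at -3.14 and -3.11, are the lowest pair.

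Other noncoding snoRNA hosts gave a mixed account. Of 13 symbols listed, 11 were in the table, and 10 gene identifiers were tested. Of these 7 were depleted and 0 enriched, 4 at an adjusted p below 0.05, beside 17.2%, 9.43% and 9.78% of all tested genes, and the median was -1.41. Zfas1, a host of box C/D snoRNAs, had 226 and 229 input counts and 36 and 31 RIP counts (-2.30 ± 0.39, edgeR, adjusted p = 0.0078). Epb41l4aos fell from 90 and 81 to 15 and 16 counts (-1.999 ± 0.49, adjusted p = 0.032) and Snhg17 from 314 and 317 to 82 and 91 (-1.41 ± 0.36, adjusted p = 0.037, both by edgeR). Snhg9, the shortest of those tested, had 27 and 15 input counts and 0 and 1 RIP counts, too few in RIP for a fold (edgeR, adjusted p = 0.045).

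For these 4 both RIP libraries lay below both inputs, as for 7 of the 10 tested in all (31.3% of all tested genes). Snhg18 (-1.44 ± 0.62), Snhg20 (-1.41 ± 0.55) and Snhg15 (-1.28 ± 0.49) passed the limits of the study but not the adjusted threshold. Of the 3 that passed neither, Snhg4 (32 and 25 counts against 29 and 21) was at 0.26 ± 0.58, Snhg14 (32 and 107 against 49 and 67) at 0.21 ± 0.58 and Dancr (20 and 10 against 6 and 13) at -0.20 ± 0.85. Low counts were not limited to these 3. In RIP, Snhg15 had 31 and 18 counts, Snhg18 had 11 and 22, and Snhg20 had 16 and 16. Snhg14 is a long transcript of 6861 nt that, like Malat1, was higher in input replicate 2, by 3.25-fold.

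Protein-coding hosts, most of which are ribosomal protein and translation factor genes, were likewise lower in RIP, with all 22 estimates below 0. Of the 22 tested, 17 were depleted (all tested genes, 17.2%) and 0 enriched (9.43%), 12 at an adjusted p below 0.05 (9.78%), and the median was -1.64. The largest falls were those of Rpl23a (12742 and 8361 counts against 518 and 623, -3.75 ± 0.42), Rpl27a (-3.10 ± 0.37), Rps12 (-2.95 ± 0.36) and Tpt1 (-2.71 ± 0.36), with adjusted p-values from 0.0015 to 0.0027 by edgeR. The groups did not overlap in 20 of the 22, these 4 included. Both RIP libraries lay below both inputs in 31.3% of all tested genes. Since the 4 were picked for their large falls, the gap between their groups adds nothing to the calls. After the trend on length and GC content was taken out 11 of the 22 were still depleted, against 14.6% of all tested genes and 1 of the 8 members (Snhg11).

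The proteins that assemble on snoRNAs were looked at as mRNAs. All 8 core proteins tested were depleted by the limits of the study, 3 of them at an adjusted p below 0.05, against 17.2% and 9.78% of all tested genes, with a median of -1.65. Gar1, of the H/ACA particle, fell from 1119 and 857 to 98 and 56 counts (-3.23 ± 0.42, edgeR, adjusted p = 0.0024). Nop10 (-2.50 ± 0.37, adjusted p = 0.0040), of the same particle, and Snu13 (-1.82 ± 0.39, adjusted p = 0.020, both by edgeR), which binds box C/D snoRNAs, also passed. The inputs differed most for Nop58 (121 and 584 counts) and Dkc1 (115 and 299 counts). Their log2 ratios within the replicate pairs were -0.12 and -3.03 for Nop58, and -0.51 and -1.71 for Dkc1.

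The factors of nonsense-mediated decay and of the exon junction complex mark spliced RNAs and remove some of them. Of 15 tested, 5 were depleted, all at an adjusted p below 0.05, and 1 was enriched, against 17.2%, 9.78% and 9.43% of all tested genes, and the median was -0.54. Magoh, an exon junction core protein, fell from 1261 and 1041 to 54 and 81 counts (-3.63 ± 0.41, edgeR, adjusted p = 0.0015). Upf3b (-3.05 ± 0.66), Magohb (-2.83 ± 0.72) and Upf3a (-2.23 ± 0.39) followed, with adjusted p-values of 0.020, 0.037 and 0.0091 by edgeR, and Rbm8a was the remaining one. The enriched gene was Smg1, the kinase of the pathway, with 173 and 450 input counts and 516 and 443 RIP counts (1.09 ± 0.46). In CPM (5.19 and 13.1 against 20.5 and 18.4) its groups did not overlap, and its adjusted p of 0.15 in edgeR did not pass. Its longest spliced transcript has 15557 nt, and that of Magoh 692 nt.

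Nuclear lncRNAs, which unlike the hosts are kept from the cytoplasm, served for comparison. Of 8 tested, 2 were depleted and 0 enriched, near the 17.2% and 9.43% of all tested genes, with a median of -0.82 and a median length of 11855.5 nt. Xist fell from 330 and 504 to 77 and 39 counts (-2.39 ± 0.45, edgeR, adjusted p = 0.012). Malat1 had 8912 and 9460 RIP counts (-2.09 ± 0.79, edgeR, adjusted p = 0.12), its groups overlapped in CPM, and its log2 ratios within the replicate pairs were -0.03 and -2.84. Without input replicate 2, 1 of the 8 was depleted and the median was -0.16. With the trend on length and GC content taken out 6 of these 8 were depleted, against 1 of the 8 host transcripts and 14.6% of all tested genes. The difference between the lists was not tested.

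**Figure D5:**
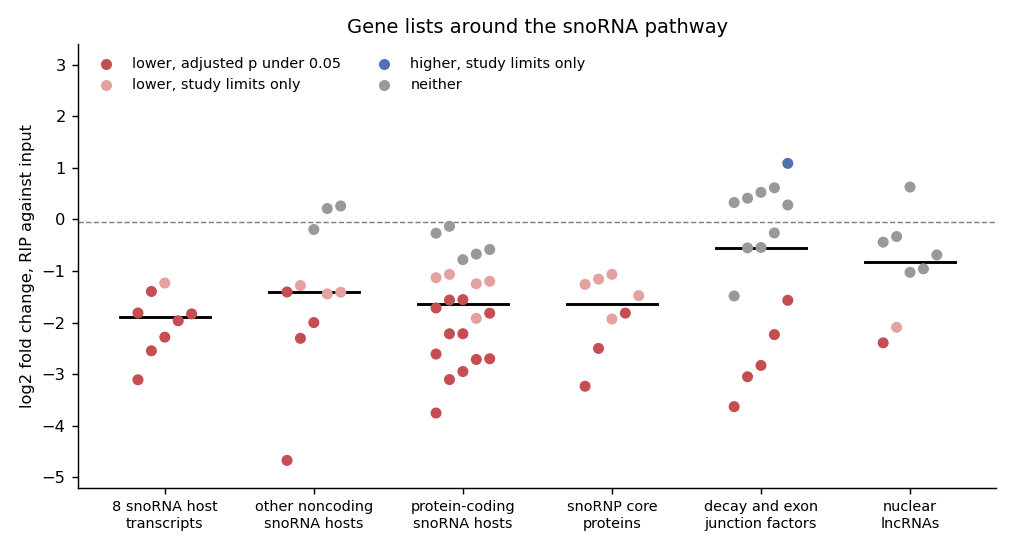
Log2 fold change, RIP against input, of every tested gene in 6 lists (points, coloured by call) with the list's median (black bar) and the median of all tested genes (dashed line, -0.05). The 8 snoRNA host transcripts and the 8 snoRNP core proteins lie wholly below -1, the other lists reach above -1, and the lowest point, Snhg9, rests on 0 and 1 RIP counts.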

How the data were processed

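The authors deposited counts per gene, whole numbers that are neither normalized nor pooled, and FPKM values for the same genes, scaled by the authors for length and library size. The submitters' processing notes list STAR 2.5, HTSeq and the build GRCm38; settings are not given in the sources used here. Gene types, coordinates and spliced transcripts came from GENCODE M21 (GRCm38), with the longest transcript lacking the retained intron type standing for a gene. Samples were grouped by their labels, and every per-sample column was used.

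Counts were tested in R 4.3.3 with edgeR 4.0.16 (filterByExpr, minimum count 10 and minimum total 15; TMM; glmQLFit and glmQLFTest; Benjamini-Hochberg adjustment over 13632 genes). With 2 libraries a group, an exact permutation test of 1 value cannot go below p = 0.33, and only the fit across genes was used. The trend on length and GC content was fitted with mgcv 1.9.3 (basis size 8) and entered as offsets. Alternatives used DESeq2 1.42.0, limma 3.58.1 on log2(FPKM + 0.1) and log2(FPKM + 1), other scalings and filters, a replicate block, and each library left out in turn. The fits were checked on simulated counts, with 13448 genes in the quasi-likelihood fit of RIP against input. The limits of the study called 100% of 88 genes changed by 2 and 100% of 112 changed by 3 on the log2 scale. Of the unchanged genes they called 1.34%. The simulation gave every gene the same dispersion and held no length trend, so these shares need not hold for the real libraries.

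By the series' design text an input and a pulldown belong to each replicate, so equal numbers mark a pair. Replicate differences of the inputs and those of the RIP libraries had a Spearman correlation of -0.032 over 13632 genes.

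The members, the gene lists and the tests were chosen with earlier results of these data known. Named genes are the members, the tested noncoding hosts, up to 4 called genes of the other lists, the hosted small RNAs with at least 10 counts, and the 3 profiles nearest to the member highest in FPKM. Rcc1, Gm17300, Smg1, Rbm8a and the core proteins are not covered by it and were picked with their values in view.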

Additional observations from a re-analysis of the deposited data

How the results depend on the processing

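The direction of all 8 members held in every alternative but one kind: with the trend on length and GC content taken out, Snhg1 turned to 0.11 without and 0.12 with the replicate block. In these fits 1 member was depleted (and 1 at an adjusted p below 0.05) without the block and 1 with it; with retained introns in the length, added after the data were seen, 3 were depleted and 3 passed the adjusted threshold, with or without the block. Limma on log2(FPKM + 1) left 5 depleted, scaling by library size alone 7. At an adjusted p below 0.05, 4 members were called without the low-count filter and 3 by limma on log2(FPKM + 0.1), also unfiltered. The replicate block alone changed no member's call (8 depleted, 7 at an adjusted p below 0.05; Snhg12, adjusted p = 0.079 by edgeR). Leaving out 1 library in turn gave 5 to 8 depleted members and 0 to 8 at an adjusted p below 0.05, with 0 when either RIP library was left out; the lone library of a group was then taken to vary like the others. Snhg5 and Snhg12 lost their call without either RIP library, and Snhg11 without RIP replicate 1.

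Of the other noncoding hosts, 4 were depleted by DESeq2 and by library size alone, 3 by limma on log2(FPKM + 1), and 2 with the length and GC trend taken out, with or without the block; leaving out libraries gave 3 to 7 depleted and 0 to 1 enriched. Protein-coding hosts came to 11 depleted with the trend taken out, with or without the block, and to between 10 and 15 without single libraries. For decay and exon junction factors, limma on log2(FPKM + 1) gave 1 depleted; the 1 enriched gene, Smg1, was lost (0 enriched) without the low-count filter, by limma on log2(FPKM + 1) or unfiltered log2(FPKM + 0.1), and with the trend taken out, and leave-one-out counts were 0 to 1. Of the snoRNP core proteins, 4 were depleted by library size alone and by limma in each form, 5 with the trend taken out, and 3 to 7 without single libraries. Of the nuclear lncRNAs, 1 was depleted by DESeq2 and by limma on log2(FPKM + 0.1) with or without a filter, 0 by limma on log2(FPKM + 1), 6 with the trend taken out, and 1 to 3 without single libraries. Of the hosted small RNAs, 5 of 7 were depleted above, and other settings tested other numbers of them. DESeq2 gave 3 of 29 and at least 10 counts in every library 3 of 3. Limma gave 10 of 23 on log2(FPKM + 0.1), 9 of 23 on log2(FPKM + 1) and 9 of 29 without a filter, with 3, 2 and 2 enriched. The sets of 29 take in the 8 genes that stood at 1 in all 4 libraries. With the trend taken out 0 of 7 were depleted, and 1 of 7 with the block as well. Without single libraries the median lay between -2.16 and -1.46. Apart from the changes given here and the fits without single libraries, the counts stayed within 1.5 times. The cause of the changes was not tested. Scaling by library size alone moved the median of all genes from -0.05 to 0.27, and 12.7% of genes were then depleted. The low RIP counts of Snhg6 and of the small RNAs limit their precision most.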
